A study of Homo sapiens with 6 samples.

Results

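The collagens, laminins and glycoproteins of the extracellular matrix were examined in Hep-G2, a long-established human line from a liver cancer, whose CLGN transcript was lowered by a short hairpin RNA. Members were the protein-coding genes named as collagen chains (44 genes), as laminin alpha, beta or gamma chains (12 genes), or as 1 of 15 singly named matrix genes (SPARC, FN1, NID1, NID2, HSPG2, AGRN, FBN1, FBN2, FBLN1, LUM, TNC, THBS1, LOX, LOXL2 and LOXL4), which made 71 of the 58735 genes of the table. Of the 71 members, 35 passed the expression filter of at least 1 FPKM in at least 3 libraries and were tested, and the other 36 are described by their reads.

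The libraries came from Hep-G2 cells that had received a lentivirus with a hairpin against CLGN (sh-CLGN, 3 libraries, labelled as CLGN knock down) or a control hairpin (sh-NC, 3 libraries, labelled WT with the treatment shcontrol). CLGN encodes calmegin, a lectin chaperone of the endoplasmic reticulum. Both groups carried a virus and a hairpin, each group rested on 1 hairpin, and all 6 libraries bore the batch label 0DAY. The labels do not say whether libraries of a group came from separate cultures, so that p-values measure only the spread between these libraries, which may be technical.

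Fibrillar collagens are secreted as triple-helical procollagens, trimmed, packed into fibrils with associated collagens and small proteoglycans, and crosslinked by lysyl oxidases. Basement membranes are sheets in which laminin trimers and a type IV collagen network are joined by nidogens and by the heparan sulfate proteoglycans perlecan and agrin. In the liver, stellate cells and fibroblasts are the usual makers of fibrillar collagen, whereas hepatocytes secrete fibronectin into plasma.

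The label of the knockdown was checked first. CLGN stood at 24.1, 21.05 and 26.1 FPKM in sh-NC and at 9.48, 8.88 and 8.60 FPKM in sh-CLGN, which left 37.8% of the sh-NC mean (log2 fold change -1.31, SE 0.081, limma adjusted p = 8.35e-06). FPKM counts fragments per kilobase of gene at a common library size, and fold changes are differences of log2(FPKM + 1), a scale that understates changes of low genes. Depth was 14955816 to 16244639 reads per library, and a single read per kilobase of gene came to 0.0589 to 0.0717 FPKM. The library size that the FPKM imply was 0.933 to 0.953 of these reads in sh-NC but 1.07 to 1.08 of them in sh-CLGN. FPKM of sh-CLGN thus stood lower beside their reads than FPKM of sh-NC. Fits and ratios on reads below used the implied sizes, and scaling by read totals used the recovered reads instead. Mitochondrial genes took 3.25% to 4.02% of the reads of sh-NC libraries but 5.49% to 5.80% of those of sh-CLGN, and 23578 to 23793 genes against 26814 to 27006 genes had at least 1 read. Both measures moved with the group, and their part in the results below was not tested. The 10 hepatocyte markers summed to 7868 to 8132 FPKM in sh-NC and 8105 to 8697 FPKM in sh-CLGN, and all 10 were tested. By adjusted p, 4 of them were higher and 5 lower in sh-CLGN. AFP, the fetal albumin, went from 2670 ± 104.9 to 3782 ± 144.5 FPKM (log2 fold change 0.50), ALB, which encodes albumin, from 2007 ± 70.9 to 1076 ± 27.7 FPKM (log2 fold change -0.90), and TF, which encodes transferrin, from 181 ± 3.32 to 58.4 ± 0.483 FPKM (SD, n = 3, log2 fold change -1.62), the only 1 of the 10 past both thresholds. Whether these shifts had a part in the results below was not tested.

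Most markers of the cells that usually make fibrillar matrix were near 0 in both groups. PDGFRB, the only tested marker of this list, stood at 2.12 ± 0.268 FPKM in sh-NC and 2.76 ± 0.271 FPKM in sh-CLGN (SD, n = 3). Of 14 stellate cell and fibroblast markers, 8 had at most 3 reads in every library, and FAP, POSTN, TCF21 and HAND2 had none. DCN had 0 to 1 read, THY1 0 to 1 read and ACTA2 1 to 5 reads. The whole list summed to 2.75 to 3.39 FPKM in sh-NC and to 4.68 to 4.99 FPKM in sh-CLGN, where PDGFRB (log2 fold change 0.27, limma adjusted p = 0.0334), PDGFRA (46 to 70 reads against 136 to 179 reads) and RGS5 (27 to 41 reads against 96 to 111 reads) carried the difference. In bulk RNA, more cells of a type and more RNA per cell cannot be told apart. Endothelial markers summed to 3.48 to 3.82 FPKM in sh-NC and 2.73 to 2.999 FPKM in sh-CLGN. Most of this was PECAM1 (3.21 ± 0.135 against 2.46 ± 0.164 FPKM, SD, n = 3, log2 fold change -0.28, limma adjusted p = 0.00778). CDH5 had 21 to 30 reads against 4 to 10 reads, LYVE1 had 0 to 2 reads against 10 to 15 reads, and KDR had none. Leukocyte markers summed to 70.1 to 77.9 FPKM and 61.7 to 68.7 FPKM, nearly all of it LYZ, while PTPRC had 0 to 4 reads and CD163 none. LYZ (log2 fold change -0.19, limma adjusted p = 0.0262) and CD14 (log2 fold change -0.62, limma adjusted p = 0.00121) were tested and fell. CD14 went from 1.345 ± 0.147 to 0.524 ± 0.127 FPKM (SD, n = 3), and so passed the filter through sh-NC and had to be lower in sh-CLGN.

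Matrix genes moved in both directions. Past an adjusted p of 0.05 and an absolute log2 fold change of 1, 8 members were higher in sh-CLGN (SPARC, COL1A2, COL12A1, COL1A1, LOXL2, COL7A1, LUM and COL3A1) and 2 were lower (LOXL4 and NID1), where 3.09% of the 13074 genes tested passed both thresholds upward and 3.19% downward, 6.28% in all. By adjusted p alone, 17 of the 35 tested members rose and 13 fell, against 26.7% and 39.0% of all tested genes, 65.8% together. The remaining 5 members, COL2A1, COL4A5, COL26A1, LAMA5 and THBS1, were also those whose groups overlapped, since the libraries of the other 30 members did not overlap between groups. Among all tested genes 28.7% lay wholly higher and 41.5% wholly lower in sh-CLGN, which makes 70.2%. The median log2 fold change was 0.19 over the tested members and -0.08 over all tested genes. Scaling to TPM or by read totals moved the median of all tested genes up by 0.11 and 0.16 on the log2 scale, so that directions of small changes are given with these alternatives where they turned.

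The filter shaped these counts. Of the 35 tested members, 26 reached 1 FPKM in all 6 libraries. The other 9 reached it in every sh-CLGN library but not in every sh-NC library. Of these, COL1A1, COL3A1, COL4A6, COL7A1, COL28A1, LAMA3 and LUM reached it in no sh-NC library and so had to be higher in sh-CLGN. COL12A1 reached it in 2 sh-NC libraries, so that the filter favoured a rise without fixing it. Without those 9, 8 of 26 members rose and 13 fell by adjusted p, 3 higher and 2 lower members passed both thresholds, and the median was -0.23. When genes were kept by a mean of at least 1 FPKM instead, 32 members were tested, 7 higher and 2 lower passed both thresholds, beside 2.94% and 3.27% of all genes kept, and the median was 0.16. The plot of values by library shows the spread of the 3 libraries of a group beside the distance between groups. There the groups of COL2A1, COL4A5, COL26A1, LAMA5 and THBS1 overlapped, and those of COL18A1 lay close (22.3 FPKM or more against 20.8 FPKM or less). The plot against all tested genes shows where members lay at their level.

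**Figure D1:**
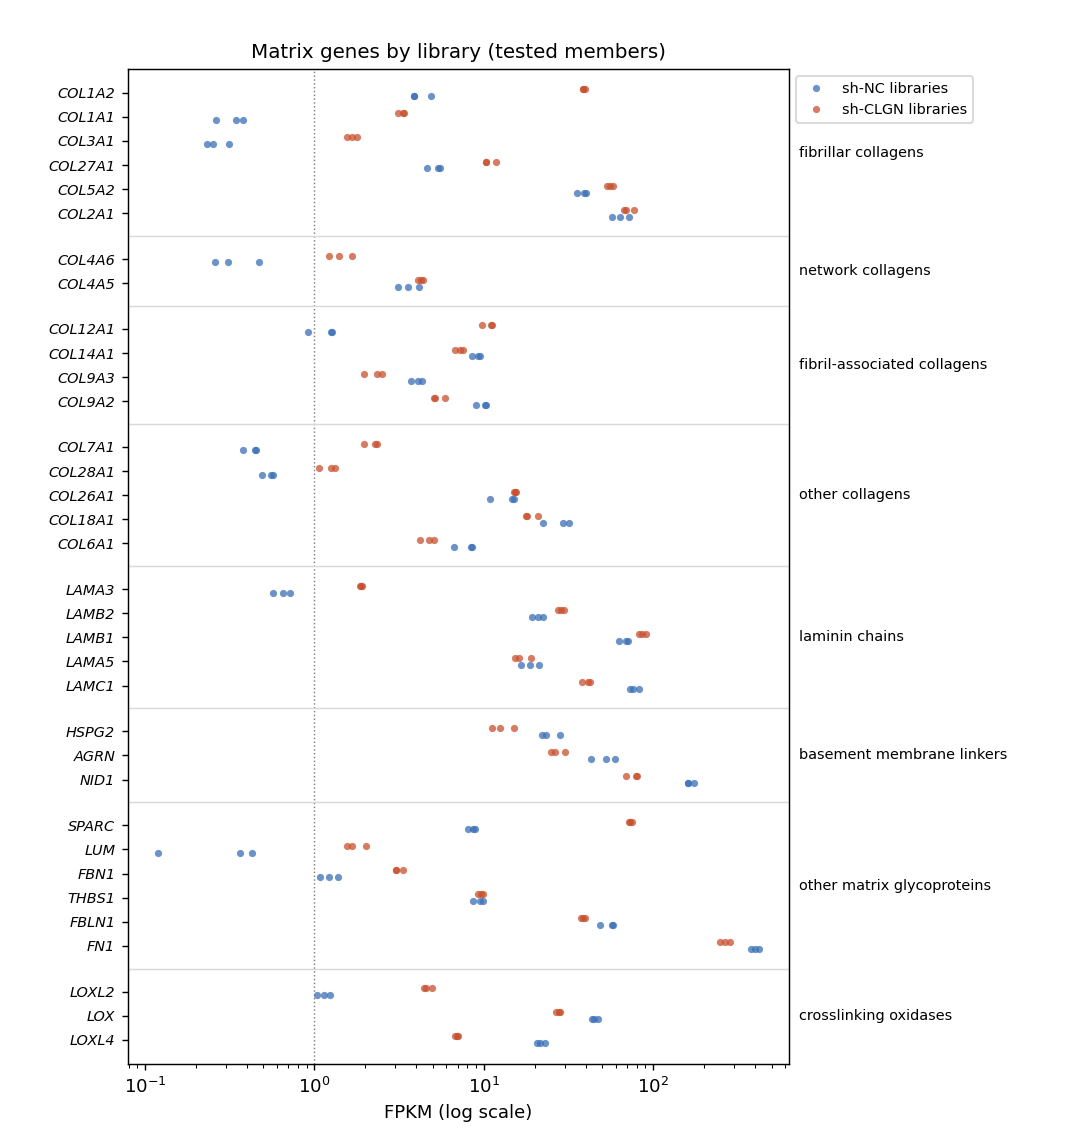
FPKM of 34 of the 35 tested matrix genes (log axis), 1 point per library, 3 sh-NC libraries in blue and 3 sh-CLGN libraries in orange, grouped by role. The dotted line marks 1 FPKM. COL1A2 moved from 3.86 to 4.85 FPKM up to 38.3 to 39.4 FPKM and SPARC from 8.08 to 8.83 FPKM up to 71.8 to 74.9 FPKM, while NID1, FN1 and LAMC1 lay lower in every sh-CLGN library.

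**Figure D2:**
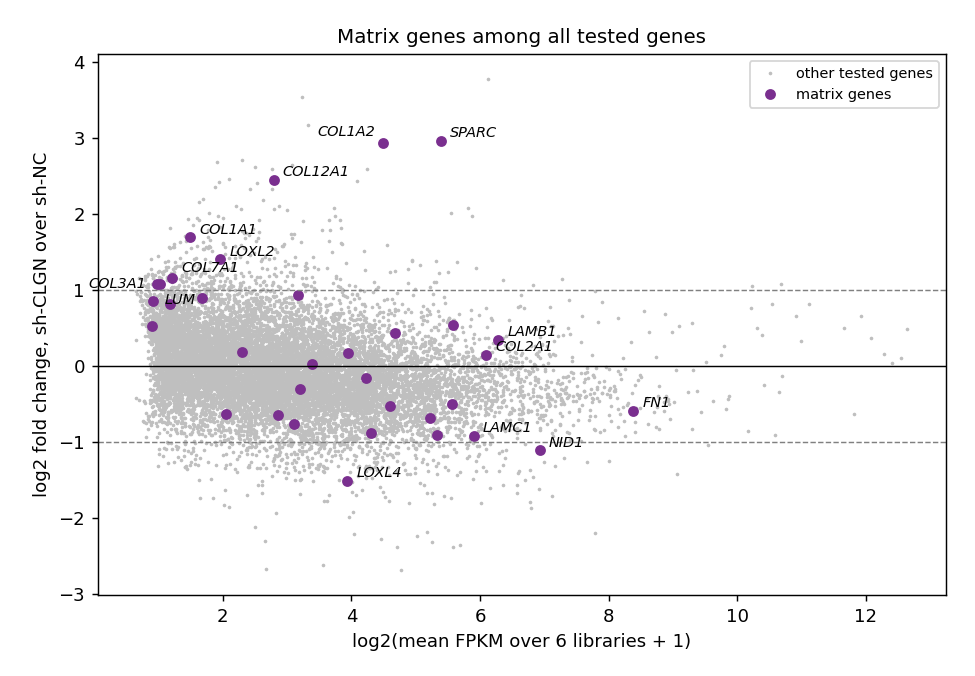
Log2 fold change of each tested gene against log2 of its mean FPKM over the 6 libraries plus 1, 34 matrix genes in purple and the other tested genes in grey. Dashed lines mark a log2 fold change of 1 in each direction. SPARC and COL1A2 had the fourth and the fifth highest fold change of the 13074 tested genes.

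Of the 11 fibrillar collagen genes, 6 were tested. COL1A1 and COL3A1 passed the filter through sh-CLGN and so had to be higher, and of the other 4, COL1A2, COL5A2 and COL27A1 rose, where 26.7% of all tested genes rose. COL1A2 (chr7:94394561-94431232 on GRCh38, plus strand), a chain of type I collagen, the main collagen of fibrous tissue, stood at 3.89, 4.85 and 3.86 FPKM in sh-NC. In sh-CLGN it stood at 38.3, 38.3 and 39.4 FPKM, a 9.21-fold higher mean. Every sh-CLGN library lay far above every sh-NC library (log2 fold change 2.94, SE 0.077, limma adjusted p = 4.15e-07).

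COL1A1, the partner chain that outnumbers it in the type I trimer, was much lower per kilobase. Its values were 0.263, 0.377 and 0.342 FPKM in sh-NC and 3.39, 3.12 and 3.35 FPKM in sh-CLGN, a 10.05-fold higher mean (log2 fold change 1.69, SE 0.083, limma adjusted p = 3.34e-06). The groups did not overlap. On scales that shrink low values less, the difference was wider, with log2 fold changes of 2.65 with TPM scaling and 3.33 with voom, limma's weighted fit for reads, on the whole reads recovered from FPKM. The FPKM ratio of COL1A1 to COL1A2 was 0.0779 ± 0.0105 for sh-NC and 0.0850 ± 0.00348 for sh-CLGN (SD, n = 3), and the 2 groups overlapped (exact two-sided permutation test, p = 0.4). COL3A1, which forms mixed fibrils with type I collagen, stood at 0.232, 0.251 and 0.313 FPKM against 1.56, 1.78 and 1.67 FPKM (log2 fold change 1.08, SE 0.093, limma adjusted p = 3.69e-05), again without overlap. After quantile normalization its log2 fold change was 0.81, and with voom on recovered reads 2.63.

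Other fibrillar chains moved less. COL5A2, a chain of type V collagen that sits inside type I fibrils, stood at 35.3, 40.4 and 38.8 FPKM in sh-NC and 53.7, 55.5 and 58.1 FPKM in sh-CLGN, and so rose by 0.54 on the log2 scale (limma adjusted p = 0.000148). Its level per kilobase was 9.14 ± 0.861 times that of COL1A2 in sh-NC and 1.44 ± 0.0376 times in sh-CLGN (SD, n = 3). COL27A1 rose from 5.15 ± 0.456 to 10.8 ± 0.831 FPKM (SD, n = 3, log2 fold change 0.94, limma adjusted p = 3.11e-05), just under the fold threshold. It passed both thresholds with a pseudocount of 0.1 (1.05), TPM scaling (1.15), read totals (1.11), quantile normalization (1.03), the GC correction (1.11) and voom on recovered reads (1.07). COL2A1, the main collagen of cartilage and the fibrillar collagen with the highest level in these cells, stood at 63.4, 71.7 and 57.1 FPKM against 69.0, 67.6 and 76.8 FPKM, and the groups overlapped (log2 fold change 0.15, limma adjusted p = 0.159). It passed at adjusted p = 0.0223 with TPM scaling, 0.00684 with scaling by read totals, 0.00259 with quantile normalization, 0.000811 after a GC correction 0.0336 without sh-NC replicate 2 and 0.0478 with voom on genes of 10 reads or more, all with limma.

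**Figure D3:**
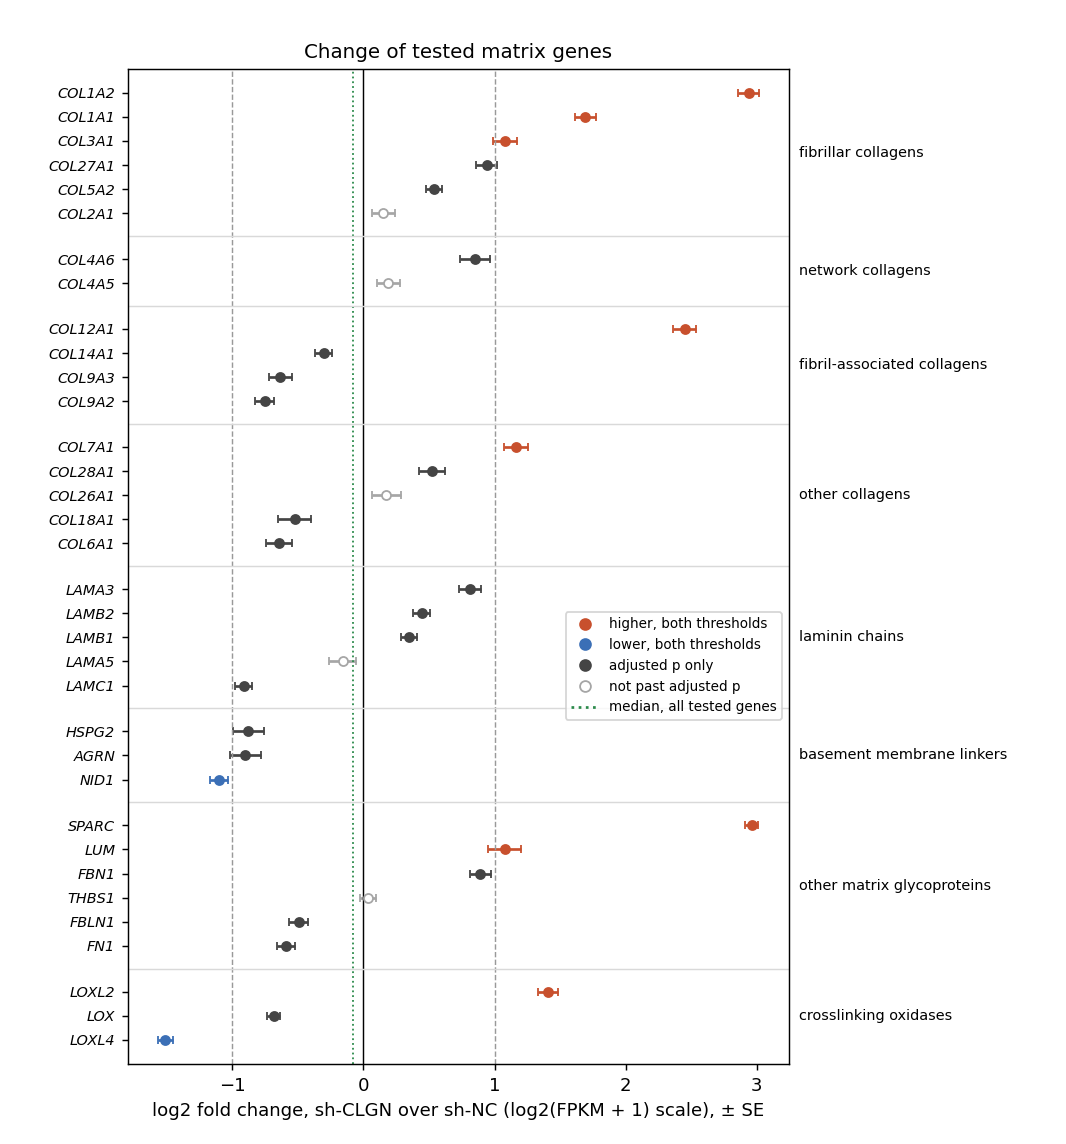
Log2 fold change of sh-CLGN over sh-NC for 34 of the 35 tested matrix genes, with its standard error, grouped by role. Orange and blue points passed both thresholds, dark points adjusted p alone, and open points neither. The green dotted line is the median of all tested genes (-0.08). The fibrillar collagens lie to the right of it and the 3 basement membrane linkers to the left. Of the fibrillar collagens, COL1A1 and COL3A1 passed the filter through sh-CLGN and so had to be higher.

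Collagens that coat fibrils split. COL12A1, whose product sits on the surface of type I fibrils, stood at 0.919, 1.26 and 1.25 FPKM in sh-NC and at 9.75, 11.1 and 11.2 FPKM in sh-CLGN (log2 fold change 2.45, SE 0.089, limma adjusted p = 1.32e-06). All sh-CLGN libraries were above all sh-NC libraries, and its ratio to COL1A2 was 0.273 ± 0.0449 and 0.276 ± 0.0190 (SD, n = 3). The other 3 tested members of this class fell. COL14A1, also a type I fibril partner, went from 9.11 ± 0.537 to 7.20 ± 0.431 FPKM, and COL9A2 and COL9A3, chains of the type IX collagen of cartilage fibrils, went from 9.78 ± 0.712 to 5.40 ± 0.443 FPKM and from 4.05 ± 0.297 to 2.26 ± 0.279 FPKM (SD, n = 3). Their log2 fold changes were -0.30, -0.75 and -0.63 (limma adjusted p = 0.00424, 7.35e-05 and 0.000385). COL14A1 no longer passed with TPM scaling (adjusted p = 0.0634) or with read totals (adjusted p = 0.125).

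Of the network collagens of basement membranes, the X-linked pair COL4A5 and COL4A6 were tested. COL4A6 stood at 0.309, 0.472 and 0.258 FPKM against 1.23, 1.39 and 1.68 FPKM and rose by 0.85 on the log2 scale (limma adjusted p = 0.000353), or by 2.07 with voom on recovered reads. COL4A5 stood at 3.12, 4.17 and 3.57 FPKM against 4.40, 4.11 and 4.23 FPKM, with groups that overlapped (log2 fold change 0.19, limma adjusted p = 0.0930), and passed with TPM scaling (adjusted p = 0.0318), with read totals (0.01004), without sh-NC replicate 2 (0.0193), with voom on recovered reads (0.0240) and with voom on genes of 10 reads or more (0.0259).

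Among the remaining collagens, COL7A1, which forms the anchoring fibrils under epithelia, stood at 0.447, 0.452 and 0.379 FPKM in sh-NC and 2.28, 1.97 and 2.35 FPKM in sh-CLGN (log2 fold change 1.16, SE 0.091, limma adjusted p = 2.31e-05), with no overlap. After quantile normalization its log2 fold change was 0.95, and with voom on recovered reads 2.36. COL28A1 rose from 0.537 ± 0.0427 to 1.21 ± 0.138 FPKM (SD, n = 3, log2 fold change 0.52, limma adjusted p = 0.00179), and missed the threshold after quantile normalization (adjusted p = 0.0595). COL18A1, a basement membrane collagen whose end fragment is endostatin, stood at 29.2, 31.8 and 22.3 FPKM against 18.1, 17.7 and 20.8 FPKM and fell by 0.52 on the log2 scale (limma adjusted p = 0.00659), and missed the threshold after quantile normalization (adjusted p = 0.0685). The counting is not stated to use strand, and 16.4% of its exonic bases are shared with SLC19A1 on the other strand. COL6A1, a chain of the beaded filaments of type VI collagen, fell from 7.88 ± 1.03 to 4.68 ± 0.456 FPKM (SD, n = 3, log2 fold change -0.64). COL26A1 stood at 15.2, 14.6 and 10.9 FPKM against 15.0, 15.3 and 15.6 FPKM, and the groups overlapped (log2 fold change 0.18, limma adjusted p = 0.192). It passed with TPM scaling (adjusted p = 0.0311), read totals (0.0162), quantile normalization (0.0123) and the GC correction (0.000941).

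Laminins are trimers of an alpha, a beta and a gamma chain, and chains that can share a trimer moved apart. LAMB1 (chr7:107923799-108003255, minus strand) stood at 62.5, 70.9 and 69.4 FPKM in sh-NC and at 82.6, 85.8 and 90.3 FPKM in sh-CLGN, a rise in every library (log2 fold change 0.35, SE 0.062, limma adjusted p = 0.00155), or 0.54 with read totals and 0.63 after quantile normalization. LAMC1 (chr1:183023460-183145592, plus strand) stood at 73.0, 82.6 and 76.3 FPKM and then at 37.9, 41.4 and 42.5 FPKM, lower in every library (log2 fold change -0.91, SE 0.065, limma adjusted p = 1.47e-05). The FPKM ratio of LAMB1 to LAMC1 was therefore 0.856, 0.858 and 0.911 across the sh-NC libraries and 2.18, 2.07 and 2.13 across those of sh-CLGN. The groups were separate, and p = 0.1 in an exact two-sided permutation test is the smallest that 3 against 3 libraries allow.

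LAMB2, the alternative beta chain, stood at 20.8, 22.4 and 19.2 FPKM against 27.4, 28.7 and 29.7 FPKM (log2 fold change 0.44, limma adjusted p = 0.000514). LAMA5, the alpha chain with the highest level, stood at 18.7, 21.2 and 16.6 FPKM against 15.3, 16.2 and 18.9 FPKM with overlapping groups (log2 fold change -0.16, limma adjusted p = 0.212), and its sign turned with read totals (0.028), quantile normalization (0.069) and the GC correction (0.061). LAMA3, a chain of the laminin of epithelial anchoring complexes, rose at low level. It stood at 0.567, 0.649 and 0.713 FPKM against 1.87, 1.92 and 1.89 FPKM (log2 fold change 0.82, limma adjusted p = 8.73e-05), or 1.55 with voom on recovered reads. The FPKM of all laminin chains summed to 179 to 201 for sh-NC and 168 to 187 for sh-CLGN.

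All 3 tested linkers of basement membranes fell, where 39.0% of all tested genes fell by adjusted p. Under the alternatives run their log2 fold changes stayed between -1.14 and -0.63. NID2, a linker below the filter, lay the other way, with 34 to 39 reads in sh-NC and 50 to 78 reads in sh-CLGN. NID1 (chr1:235975830-236065162, minus strand) encodes nidogen-1, which binds laminin gamma chains and type IV collagen. It stood at 159.6, 174 and 160.4 FPKM in sh-NC and at 69.4, 79.0 and 80.3 FPKM in sh-CLGN, with every sh-CLGN library below every sh-NC library (log2 fold change -1.10, SE 0.068, limma adjusted p = 8.43e-06). Its change fell short of the fold threshold with TPM scaling (-0.98), read totals (-0.91) and quantile normalization (-0.79). The ratio of NID1 to LAMC1 was 2.13 ± 0.0463 for sh-NC and 1.88 ± 0.0407 for sh-CLGN (SD, n = 3).

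AGRN, which encodes agrin, stood at 52.5, 59.6 and 43.2 FPKM against 24.9, 26.2 and 30.2 FPKM (log2 fold change -0.90, SE 0.118, limma adjusted p = 0.000302), and passed the fold threshold without sh-NC replicate 3 (-1.02). HSPG2, which encodes perlecan, stood at 23.2, 28.1 and 22.1 FPKM against 11.2, 12.4 and 15.1 FPKM (log2 fold change -0.88, SE 0.119, limma adjusted p = 0.000367). For both genes each sh-CLGN library was below each sh-NC library, and the plot of basement membrane genes shows this beside the opposite step of LAMB1.

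**Figure D4:**
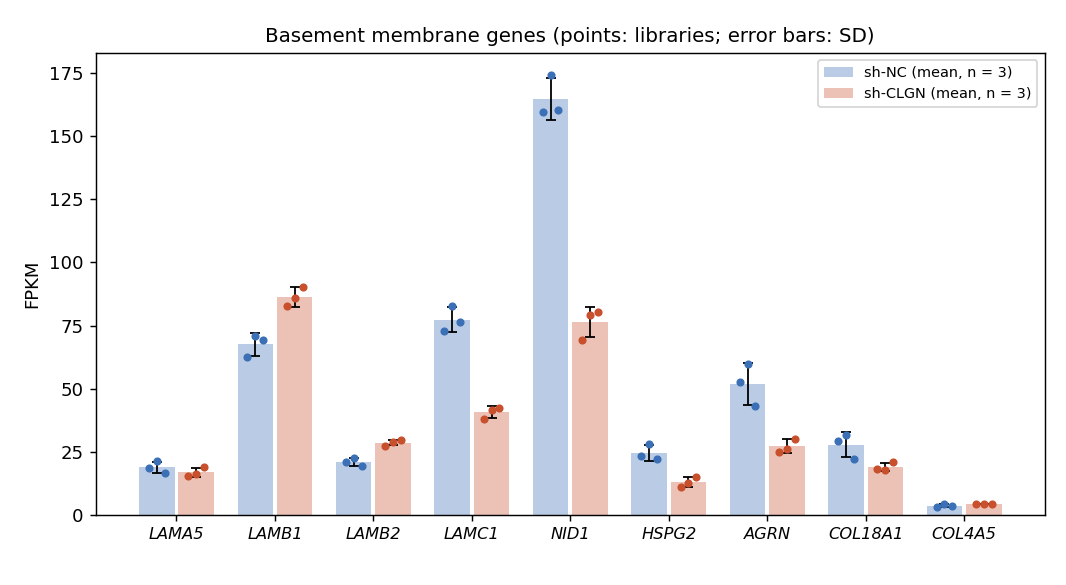
FPKM of 9 basement membrane genes. Bars are means of 3 libraries, error bars are SD, and points are libraries, sh-NC in blue and sh-CLGN in orange. LAMC1, NID1, HSPG2, AGRN and COL18A1 were lower in sh-CLGN, LAMB1 and LAMB2 were higher, and LAMA5 and COL4A5 overlapped.

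Among the other glycoproteins, SPARC (chr5:151661096-151687165, minus strand) encodes a secreted protein that binds collagen and calcium. It stood at 8.83, 8.68 and 8.08 FPKM in sh-NC and at 72.8, 71.8 and 74.9 FPKM in sh-CLGN, 8.58-fold higher in the mean. Libraries of a group were close to each other (log2 fold change 2.96, SE 0.050, limma adjusted p = 8.44e-08). LUM, which encodes lumican, a small proteoglycan of collagen fibrils, stood at 0.119, 0.364 and 0.430 FPKM against 1.67, 2.01 and 1.56 FPKM (log2 fold change 1.08, SE 0.126, limma adjusted p = 0.000168). Its sh-NC libraries held 41 reads in all, and its log2 fold change was 0.97 without sh-NC replicate 1, 0.70 after the GC correction and 0.84 after quantile normalization. FBN1, the main protein of microfibrils, rose from 1.23 ± 0.150 to 3.13 ± 0.169 FPKM (SD, n = 3, log2 fold change 0.89, or 1.35 with voom on recovered reads).

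FN1, which encodes fibronectin, had the highest level of all members. It stood at 377, 420.2 and 401 FPKM in sh-NC and at 246, 266 and 286 FPKM in sh-CLGN, lower in every library (log2 fold change -0.59, SE 0.069, limma adjusted p = 0.000170). The fall was smaller with read totals (-0.39) and quantile normalization (-0.26). FBLN1, a glycoprotein of basement membranes and elastic fibres, stood at 58.0, 57.0 and 48.6 FPKM against 38.4, 37.2 and 39.6 FPKM (log2 fold change -0.49, limma adjusted p = 0.000564), or -0.30 with read totals and -0.20 after quantile normalization. THBS1, a matricellular adhesion protein, was at 9.33 ± 0.612 and 9.56 ± 0.313 FPKM (SD, n = 3), with overlapping groups and a log2 fold change of 0.03 (limma adjusted p = 0.658), or -0.014 without sh-NC replicate 1. It passed with read totals (adjusted p = 0.0190) and quantile normalization (0.0402).

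The crosslinking enzymes went in opposite directions. LOXL4 (chr10:98247690-98268250, minus strand) stood at 21.35, 22.9 and 20.6 FPKM in sh-NC and at 7.08, 6.76 and 6.95 FPKM in sh-CLGN, so that 32.1% of the mean was left (log2 fold change -1.51, SE 0.056, limma adjusted p = 1.37e-06). LOX, the founding member of the family, stood at 43.4, 44.6 and 47.1 FPKM against 26.7, 28.2 and 27.95 FPKM (log2 fold change -0.68, SE 0.050, limma adjusted p = 1.80e-05), or -0.41 after quantile normalization. LOXL2 stood at 1.14, 1.24 and 1.03 FPKM against 4.43, 4.59 and 4.97 FPKM, a 4.10-fold higher mean (log2 fold change 1.41, SE 0.076, limma adjusted p = 4.95e-06). In none of these 3 genes did the groups overlap. The oxidase with the highest level was LOX in both groups.

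The FPKM of all 71 members summed to 1124 to 1241 for sh-NC and 933 to 1041 for sh-CLGN, and FN1 took 33.5% to 35.7% and 26.4% to 27.4% of it. Collagens alone summed to 175 to 211 FPKM in sh-NC and 249 to 272 FPKM in sh-CLGN, without overlap. Reads on members made 1.14% to 1.28% of an sh-NC library and 1.04% to 1.16% of an sh-CLGN library, ranges that overlapped.

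Of the 36 members below the filter, COL5A1, COL6A5, COL13A1, COL15A1, COL25A1 and LAMA1 had 0 reads in all 6 libraries, and COL4A2, COL6A3, COL8A1, COL22A1, COL23A1 and LAMC3 had at most 3 reads in any. At these depths, 3 reads are what a count of 0 allows, an allowance for counting error only. The other 24 had more than 3 reads in some library, and in 9 of them the sh-CLGN libraries lay wholly higher and in 2 wholly lower. Among all genes of this kind, 31.2% lay wholly higher and 6.46% wholly lower, and among the protein-coding ones 35.9% and 10.6%.

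TNC, which encodes tenascin-C, a glycoprotein of matrix under repair, was among the 9. The sh-NC libraries had 4, 1 and 0 reads of it and the sh-CLGN libraries 55, 82 and 87 reads, a ratio of 39.8 with a 95% exact interval of 16.8 to 123.9 from 5 against 224 reads, for counting error only. In a limma-voom fit on the 22042 genes with at least 10 reads, its log2 fold change was 5.48 (SE 0.789, adjusted p = 1.93e-06). In that fit, 26.1% of genes rose and 25.4% fell by adjusted p, 12.8% and 4.6% passed both thresholds, and 10 of the 23 members below the filter that could be fitted rose and 2 fell. The 10 were the 9 without NID2, joined by COL10A1 and COL17A1 at 0 to 11 reads. Of these, TNC, COL4A3, COL4A4, COL6A6 and COL17A1 had fewer than 10 reads over the sh-NC libraries together. They entered this fit only with their sh-CLGN reads, so that the filter favoured a rise.

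The other chains of type IV collagen, COL4A1 to COL4A4, were sparse. COL4A1 had 13, 5 and 9 reads against 40, 31 and 42 reads, a ratio of 3.72 (95% exact interval 2.43 to 5.89), whereas COL4A2, its usual partner and neighbour on chromosome 13, had 0, 0 and 1 read against 2, 1 and 0 reads. A ratio of the 2 chains could therefore not be set up. COL4A3 had 1, 3 and 3 reads against 10, 16 and 16 reads (ratio 5.34, interval 2.38 to 14.1), and COL4A4 had 0, 0 and 3 reads against 8, 5 and 9 reads (ratio 6.52, interval 1.96 to 34.0). All 3 rose in the voom fit (adjusted p = 0.000133, 0.00325 and 0.00858), with COL4A2 too low to be fitted. COL4A3 and COL4A4 entered that fit only with their sh-CLGN reads.

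COL11A1 and COL11A2, chains of the minor fibrillar collagen of cartilage, had 34 to 54 reads against 125 to 136 reads and 7 to 10 reads against 19 to 27 reads (ratios 2.70 and 2.39). COL16A1 had 4 to 14 reads against 31 to 37 reads, and COL6A6 had 0 to 5 reads against 7 to 11 reads. NID2, the other nidogen, had 34 to 39 reads against 50 to 78 reads, but its adjusted p in the voom fit was 0.0618, and 30.0% of its exonic bases are shared with RTRAF on the other strand. COL6A2, the partner of COL6A1, had 65 to 90 reads against 44 to 50 reads, and LAMB3, a partner of LAMA3, had 64 to 87 reads against 30 to 46 reads (ratios 0.518 and 0.437, voom adjusted p = 0.000521 and 8.87e-05). LAMB3 thus fell in the voom fit, whereas LAMA3 rose in the test above.

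**Figure D5:**
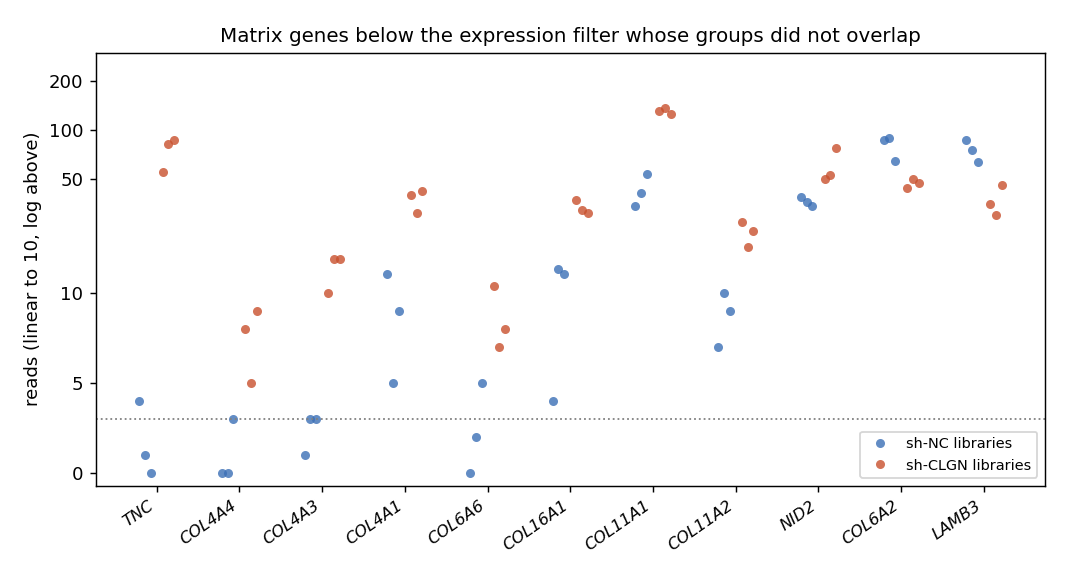
Reads per library of the 11 matrix genes below the expression filter whose groups did not overlap (axis linear up to 10 reads and logarithmic above), sh-NC in blue and sh-CLGN in orange. The dotted line marks 3 reads. TNC lay at 0 to 4 reads with sh-NC and at 55 to 87 with sh-CLGN, and COL6A2 and LAMB3 are the 2 genes that lay lower in sh-CLGN.

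The remaining 13 members with over 3 reads had groups that overlapped in FPKM. LAMA4 had 113 to 129 reads against 131 to 178 reads, which overlapped once scaled to FPKM (0.698 to 0.763 FPKM against 0.667 to 0.938 FPKM). That scaling rests on the implied library sizes, and overlap with read totals was not checked. FBN2 (27 to 41 reads against 31 to 34 reads), COL24A1 (10 to 16 reads against 15 to 24 reads) and LAMB4 (9 to 16 reads against 14 to 33 reads) followed, and the other 9 had at most 16 reads in any library.

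Of 35 genes that modify, fold, export, trim, bind or degrade collagen, 25 were tested. By adjusted p, 8 rose and 15 fell, beside 26.7% and 39.0% of all tested genes, with a median log2 fold change of -0.28 beside -0.08. Past both thresholds 1 was higher and 3 were lower, beside 3.09% and 3.19% of all tested genes. BMP1, the protease that trims the carboxyl end of fibrillar procollagens, was higher (3.49 ± 0.327 against 10.2 ± 0.778 FPKM, log2 fold change 1.32). COLGALT1, which adds galactose to hydroxylysine, went from 62.0 ± 3.83 to 24.2 ± 1.21 FPKM (log2 fold change -1.32). PLOD1, a lysyl hydroxylase, went from 56.05 ± 5.56 to 21.9 ± 1.20 FPKM (log2 fold change -1.32), and P3H4, which works in a complex with it, from 14.9 ± 0.893 to 6.04 ± 0.266 FPKM (log2 fold change -1.18). PCOLCE2, an enhancer of the BMP1 protease, fell by 0.99 on the log2 scale. All 5 had limma adjusted p-values between 2.82e-06 and 7.20e-06. SERPINH1, the collagen chaperone, was named after its values were seen and went from 33.1 ± 1.56 to 39.0 ± 0.719 FPKM (SD, n = 3, log2 fold change 0.23, limma adjusted p = 0.00434). Among the 8 that rose, ADAMTS3 (0.355 ± 0.0851 against 1.22 ± 0.179 FPKM, SD, n = 3) passed the filter through sh-CLGN and so had to be higher. Among the 15 that fell, P3H3 had a mean of 0.955 FPKM in sh-CLGN. No count without such genes was made for this list.

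Of 76 further matrix genes, 36 were tested, 18 rose and 13 fell by adjusted p, beside 26.7% and 39.0% of all tested genes, with a median log2 fold change of 0.15. Past both thresholds 4 were higher and 4 lower, beside 3.09% and 3.19%. The higher genes past both thresholds were FMOD (fibromodulin, a small proteoglycan of collagen fibrils, 4.05 ± 0.168 against 20.4 ± 0.532 FPKM), NTN4 (a netrin, 0.754 ± 0.0553 against 4.21 ± 0.0914 FPKM), EFEMP1 (a fibulin, 7.32 ± 0.225 against 17.9 ± 0.642 FPKM) and GPC4 (a glypican, 0.0922 ± 0.0204 against 1.30 ± 0.0684 FPKM). The lower ones were VWA1 (33.3 ± 4.85 against 9.87 ± 0.684 FPKM), THBS4 (8.14 ± 0.383 against 2.10 ± 0.0761 FPKM), TINAGL1 (7.57 ± 1.16 against 2.37 ± 0.171 FPKM) and SDC4 (a syndecan, 203.9 ± 4.28 against 81.45 ± 2.24 FPKM, all SD, n = 3). NTN4, GPC4 and EGFLAM (0.573 ± 0.0747 against 1.39 ± 0.117 FPKM, SD, n = 3), which also rose, passed the filter through sh-CLGN and so had to be higher. FBLN7, which fell, had a mean of 0.947 FPKM in sh-CLGN. No count without such genes was made for this list.

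Promoter sequence was looked at because members of 1 structure moved apart. RefSeq promoters of 300 bases around the gene start on GRCh38.p14 were found for 23 of the 35 tested members, and 6 are printed 5′ to 3′ on the strand of the gene. They are those of SPARC and COL12A1, which rose, of LOXL4 and NID1, the 2 lower members past both thresholds, and of the pair LAMB1 and LAMC1. Capitals mark GGGCGG, the GC box, on either strand.
SPARC, chr5:151686866-151687165, minus strand: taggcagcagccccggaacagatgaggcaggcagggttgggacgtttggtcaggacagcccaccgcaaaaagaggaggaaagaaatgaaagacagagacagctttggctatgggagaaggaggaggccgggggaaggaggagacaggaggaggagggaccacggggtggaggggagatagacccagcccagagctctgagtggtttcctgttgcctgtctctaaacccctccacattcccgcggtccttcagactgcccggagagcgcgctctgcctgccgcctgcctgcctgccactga
COL12A1, chr6:75206004-75206303, minus strand: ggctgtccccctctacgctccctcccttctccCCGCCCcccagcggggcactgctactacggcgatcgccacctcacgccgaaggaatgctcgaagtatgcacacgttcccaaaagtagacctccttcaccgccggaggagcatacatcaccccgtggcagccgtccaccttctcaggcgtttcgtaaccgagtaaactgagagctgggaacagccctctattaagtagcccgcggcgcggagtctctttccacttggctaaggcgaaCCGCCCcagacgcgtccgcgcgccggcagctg
LOXL4, chr10:98268145-98268444, minus strand: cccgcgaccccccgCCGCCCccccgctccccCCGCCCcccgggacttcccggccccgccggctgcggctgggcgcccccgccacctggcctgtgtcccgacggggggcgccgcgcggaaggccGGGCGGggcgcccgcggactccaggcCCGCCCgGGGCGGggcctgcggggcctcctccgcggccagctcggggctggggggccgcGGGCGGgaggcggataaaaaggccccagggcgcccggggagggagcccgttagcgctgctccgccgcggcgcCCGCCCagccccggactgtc
NID1, chr1:236065041-236065340, minus strand: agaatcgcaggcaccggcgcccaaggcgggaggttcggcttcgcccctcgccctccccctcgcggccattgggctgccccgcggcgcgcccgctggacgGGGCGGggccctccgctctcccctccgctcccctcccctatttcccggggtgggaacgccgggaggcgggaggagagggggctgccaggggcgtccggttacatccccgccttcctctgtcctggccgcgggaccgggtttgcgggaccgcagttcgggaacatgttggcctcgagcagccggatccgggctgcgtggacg
LAMB1, chr7:108003112-108003411, minus strand: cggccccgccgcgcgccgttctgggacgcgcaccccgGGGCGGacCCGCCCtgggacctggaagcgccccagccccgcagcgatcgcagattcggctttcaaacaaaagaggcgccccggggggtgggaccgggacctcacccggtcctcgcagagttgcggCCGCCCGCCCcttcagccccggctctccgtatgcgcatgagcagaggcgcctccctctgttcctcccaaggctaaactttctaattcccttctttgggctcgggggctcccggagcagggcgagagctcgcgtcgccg
LAMC1, chr1:183023170-183023469, plus strand: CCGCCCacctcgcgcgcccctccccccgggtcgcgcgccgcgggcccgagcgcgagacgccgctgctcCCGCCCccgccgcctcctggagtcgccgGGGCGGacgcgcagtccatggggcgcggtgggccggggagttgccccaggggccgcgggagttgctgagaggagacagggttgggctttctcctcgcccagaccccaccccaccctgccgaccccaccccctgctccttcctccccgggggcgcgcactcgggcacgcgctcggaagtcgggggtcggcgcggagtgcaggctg

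The SPARC window held 0 GC boxes, that of COL12A1 2, that of LOXL4 7, that of NID1 1, that of LAMB1 4 and that of LAMC1 3. COL7A1, also higher past both thresholds, had a window that is not printed, with 3 GC boxes and a GC content of 62.3%. GC content was 61.3% for SPARC, 63.3% for COL12A1, 85.3% for LOXL4, 74.7% for NID1, 71.0% for LAMB1 and 79.0% for LAMC1, beside a median of 58.7% over 35116 promoters. Of the 23 matched members, 18 held GGGCGG, 7 CCAAT, 2 TATAAA and 1 TGANTCA, each searched on both strands and counted once where any window of the gene held it. Over all promoters, each taken singly, these were found in 45.0%, 34.6%, 11.5% and 7.71%, so that the shares cannot be compared directly for members with more than 1 window. GGGCGG was in at least 1 window of 7 of 10 matched members that rose and of 9 of 9 that fell (for LOX in 1 of 3 windows, for COL18A1 in 2 of 2 and for COL4A6 in 1 of 2), which is a match of letters and not a site.

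Because each group rested on 1 hairpin, the annotated 3′ UTRs of GENCODE 29 were searched for 3 heptamers of the hairpin target in CLGN, which a guide strand could pair with through its seed. TACCACA was found in LAMC1, LOXL4 and COL14A1 among the tested members and in 10.8% of the 10877 tested genes with a UTR. ATACCAC was found in FBLN1 (7.91% of genes), and ACCACAA in COL12A1, LAMC1 and LOX (11.6% of genes). Any of the 3 was present in 6 of 35 members and in 21.5% of genes. Of these 6 members 5 were lower in sh-CLGN by adjusted p and COL12A1 was higher, where 39.0% of all tested genes fell. The share that fell among all tested genes with any of the 3 heptamers was not computed. The sites of LAMC1 and LOXL4 are printed, the 2 of the 6 that fell most, with TACCACA in capitals, and whether they had a part in those falls was not tested.
LAMC1, chr1:183144889-183144917, plus strand: ataccagagttTACCACAagtgttttgac
LOXL4, chr10:98248334-98248362, minus strand: tacctttatctTACCACAcacatgggtgt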

How the data were processed

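Expression came as FPKM values that the authors deposited for every gene in each library, beside positions and lengths. Per the labels, libraries were made with a NEBNext Ultra kit, and the submitters' processing notes name HISAT2 2.0.5, featureCounts and GRCh38. Whether counting used strand is not given in the sources used here, so genes that overlap on opposite strands, and close paralogs, may share reads. All 58735 positions equalled GENCODE 29. Columns were matched to samples by name, KD standing for sh-CLGN.

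FPKM times length gave whole reads (tolerance 0.01), from which depth and floors of 3 reads were taken. Genes that reached 1 FPKM in 3 or more libraries were tested with limma 3.58.1 in R 4.3.3 (eBayes with trend, log2(FPKM + 1), all 6 libraries, no covariate). Two-sided p-values were adjusted by Benjamini-Hochberg over 13074 genes. Both thresholds mean an adjusted p no higher than 0.05 and a log2 fold change of 1 or more in size. The ratios of COL1A1 to COL1A2 and of LAMB1 to LAMC1 used exact permutation tests, and read ratios exact conditional 95% intervals. The other FPKM ratios, to LAMC1 and to COL1A2, were added as description and not tested. The authors' own comparisons were not used.

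Members and lists were chosen with earlier results of these data known. Values in every library are given for members past both thresholds, tested members with a mean of at least 10 FPKM, and chains of type I and IV collagen and of laminins. Of these, 1 gene is counted but not reported singly here. Of the 2 pathway lists, genes past both thresholds and the 5 with the smallest adjusted p are named, beside SERPINH1 and genes named because of the filter. Alternatives were a pseudocount of 0.1, no filter, TPM, read totals, quantile normalization, a GC correction, voom, protein-coding genes only, the replicate block and leaving out each library. A filter on the mean and voom on genes of 10 reads or more were chosen after seeing the data. Scripts were tested on simulated data.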

Additional observations from a re-analysis of the deposited data

Results flagged for a closer look

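The rule for members left out antisense genes and pseudogenes named after collagens or laminins, and 2 of these 10 genes had groups that did not overlap. COL6A4P1, a transcribed pseudogene of a type VI collagen chain, counted 54, 44 and 41 reads across the sh-NC libraries and 73, 100 and 112 across those of sh-CLGN, a mean FPKM 1.819-fold higher. COL18A1-AS1, antisense to COL18A1, counted 2, 4 and 2 against 9, 9 and 7 reads, a mean FPKM 2.768-fold higher, from counts close to the floor of 3 reads. COL18A1 itself fell. Among all genes below the filter with over 3 reads, 31.2% lay wholly higher in sh-CLGN. Neither gene passed the filter of the main test, and their values in the fits that took in lower genes are not given here. Among genes that share exonic bases with COL18A1, only SLC19A1 was found, and not this antisense gene. Whether counting used strand is not given in the sources used here.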

How the results depend on the processing

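CLGN kept its call under every alternative run, with log2 fold changes of -1.39 to -1.24 when libraries were left out. Of the 35 tested members, LAMA5 turned sign with read totals (0.028), quantile normalization (0.069) and the GC correction (0.061), and THBS1 without sh-NC replicate 1 (-0.014, with 0.071 the highest when a library was left out), neither of which passed the test. Members past both thresholds upward numbered 13 with a pseudocount of 0.1 or voom and 23 with voom on all genes of 10 reads or more, where 29 rose by adjusted p. The counts at 10 reads take in members that entered only with their sh-CLGN reads. Downward, 1 remained with TPM, read totals or quantile normalization, each without NID1. The members' median was 0.048 with no filter, 0.34 with TPM, 0.36 with read totals, 0.25 with quantile normalization, 0.39 with the GC correction, 0.24 with voom, 0.54 with voom at 10 reads and 0.19 to 0.27 with a library left out.

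For the genes that modify, fold, export, trim, bind or degrade collagen, higher calls numbered 4 with a pseudocount of 0.1, TPM or voom. They numbered 2 with read totals, 6 with voom at 10 reads and 1 to 2 with a library left out. Lower calls numbered 5 with a pseudocount of 0.1 or voom and 6 with voom at 10 reads. The median of these genes was -0.34 with a pseudocount of 0.1, -0.059 with no filter, -0.21 with TPM and -0.13 with read totals. It was -0.15 with quantile normalization, -0.24 with the GC correction and -0.34 with voom. With voom at 10 reads it was -0.16, and with a library left out -0.30 to -0.25. For the other matrix genes, higher calls numbered 7 with a pseudocount of 0.1, TPM or voom and 15 with voom at 10 reads, where 7 were lower. Their median was 0.023 with no filter, 0.30 with TPM, 0.31 with read totals, 0.23 with quantile normalization, 0.30 with the GC correction, 0.19 with voom, 0.00035 with the filter on the mean and 0.51 with voom at 10 reads. The causes were not tested.

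Libraries with the same number did not deviate together (correlations of deviations -0.146 to -0.0184). With 3 libraries per group this cannot show whether they shared a preparation. With the replicate block, 8 members were higher and 2 lower past both thresholds, the same 10, and no tested member changed its call. Each group held 3 libraries with 1 hairpin, and genes near 3 reads cannot be resolved at this depth.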
